A study of Caenorhabditis elegans with 2 samples.

Results

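The 5 genes C28C12.2, F59C12.4, T02G6.4, Y82E9BR.20 and Y82E9BR.6 were selected on their antisense reads: they are among the genes with the most reads in antisense clusters 26 nt wide, without being on a textbook list of targets of the Argonaute ERGO-1. They are 5 of 20259 genes compared, and clusters that name one of their exons in sense or antisense numbered 32 of 51569. Because their antisense 26 nt reads chose them, those reads are given as a description and support nothing. The list of 25 ERGO-1 targets used here is a short one, and absence from it does not show that a gene is no target.

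Whole worms (Caenorhabditis elegans) of a strain labelled fem-1 gave the RNA. fem-1 is a gene of the sex-determination pathway, and hermaphrodites that lack it form oocytes but no sperm. The sources used here give no allele, age or culture condition. The series describes 2 libraries, 1 in each group: monophosphate, whose protocol captures RNAs that begin with a monophosphate, and polyphosphatase, in which enzyme treatment lets triphosphate-bearing siRNAs in as well. Values of the monophosphate library are reported and the polyphosphatase library was not analysed here. With 1 library there was no replicate, no comparison of conditions and no p-value, and intervals are exact 95% intervals for the counting error alone, since several reads may be copies of 1 molecule.

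In worms, 26G siRNAs are primary siRNAs made by Dicer together with the RNA-dependent RNA polymerase RRF-3 on a messenger RNA template, and they carry a 5′ monophosphate. ERGO-1 binds them in oocytes and embryos, and ALG-3 and ALG-4 bind another set in the germ line that makes sperm. Their targets are then covered by secondary 22G siRNAs, which start with a triphosphate and are therefore poorly caught by a monophosphate protocol. The deposited values are clusters, each the outer span of overlapping reads on 1 strand, with the number of reads, of distinct sequences and of edits to the genome. Cluster width is therefore an upper bound on read length. In what follows, 26 nt reads are reads in clusters 26 nt wide, and some of them can be shorter. Positions are as the list gives them, on a genome build that the sources used here do not name. The first base of the reads was not analysed here, so 26G siRNAs could not be told apart from other RNAs of that width.

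C28C12.2, named mesp-1 in the current gene table and encoding a protein of the meiotic spindle in oocytes, had the most antisense 26 nt reads of the 5 genes. All 100 of them (95% interval 81.4 to 122) lay in 1 cluster at chromosome IV 8500002 to 8500027 on the minus strand, opposite the 3′ UTR part of exon 2. That cluster held 7 distinct sequences and 0 edits, and its outer span stayed at 26 nt. The gene had 114 antisense exon reads in 8 clusters and 26 sense exon reads in 10 clusters. Exon 1 held 22 of the 26 sense reads and 7 of the 114 antisense reads. Exon 2 held 4 sense and 107 antisense reads. Of these 107, 100 are the reads of the 26 nt cluster, which chose the gene. Without that cluster the antisense reads were 7 in exon 1 and 7 in exon 2, so their lean to exon 2 rests on it. Of the 6 antisense clusters in exon 1, 5 had 1 read each and 1 had 2 reads, and all 6 overlapped a sense cluster by between 2 and 18 nt. The remaining antisense cluster, 40 nt wide with 7 reads and 3 distinct sequences, lay across the 3′ splice site before exon 2 (IV 8499868 to 8499907) and overlapped no sense cluster. The 100-read cluster had its nearest sense exon cluster 36 nt away and its nearest cluster on the same strand 94 nt away.

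F59C12.4, whose function is not given in the tables used here, had 15 antisense reads in 26 nt clusters (8.40 to 24.7), again all in 1 cluster. It lay at X 16602417 to 16602442 on the plus strand, opposite the coding sequence in exon 1, with 4 distinct sequences and 0 edits. A further 2 antisense reads formed clusters of 22 nt and 20 nt with 1 read each, the 20 nt one opposite the 5′ UTR. Sense reads numbered 3, namely 2 in a 19 nt cluster and 1 in an 18 nt cluster over the stop codon. The leading cluster overlapped neither of them, the nearest being 22 nt away. The leading cluster also falls within 500 nt downstream of F59C12.1 (cdh-9, a cadherin gene) in the sense direction of that gene.

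T02G6.4 had 13 antisense exon reads (6.92 to 22.2) in 1 cluster 26 nt wide, with 2 distinct sequences. It lay at chromosome I 11809725 to 11809750 on the plus strand. The span of the cluster crossed the 5′ splice site between exon 8 and intron 8, an annotated exon end. Whether each of its reads crossed it was not analysed here. Sense exon reads numbered 0, which allows up to 3 reads. Outside its exons, a measure that the choice of the genes did not use, T02G6.4 had 5 further antisense clusters with 6 reads: 2 in introns 3 and 8 (1 and 2 reads) and 3 within 1000 nt downstream (1 read each). All 5 were 26 nt wide with 1 distinct sequence each (100%, 47.8 to 100). In introns and downstream stretches of other genes, 69 of 1304 antisense clusters were 26 nt wide (5.29%, 4.14 to 6.65). The other 4 genes had no antisense cluster in introns or downstream, so this holds for T02G6.4 alone, and clusters of 1 gene are not independent. The 3 sense reads in introns and downstream of T02G6.4 lay in clusters of 19, 19 and 23 nt. The outermost of the 6 antisense clusters started 2534 nt upstream of the leading one along the transcript, and 2 of the downstream clusters lay 1 nt apart, with starts 27 nt from each other. The uniqueness value, which reached its maximum of 2 per nt of width in 88.8% of clusters with 1 distinct sequence, was 8 for the cluster farthest downstream and 50 or 52 for the other 5.

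Y82E9BR.20 had 13 antisense reads (6.92 to 22.2) in 3 clusters 26 nt wide on the minus strand of chromosome III. The leading one held 8 reads of 1 distinct sequence at 1374729 to 1374754, opposite the 3′ UTR in exon 2 and across the 5′ splice site of intron 2. The other two lay opposite the coding sequence of exon 1, with 2 reads at 1374463 to 1374488 and 3 reads at 1374495 to 1374520, 6 nt apart. This gene differed from the other 4 in where most of its antisense reads lay. A cluster 95 nt wide opposite the 3′ UTR in exon 3 (1376371 to 1376465) held 28 reads, 9 distinct sequences and 1 edit, or 66.7% of the 42 antisense reads (50.5 to 80.4), 1616 nt from the leading 26 nt cluster. Without it the gene had 14 antisense reads, 13 of them in 26 nt clusters. In sense there were 5 exon reads in a cluster 49 nt wide and 1 read in intron 2. The 26 nt clusters also lie downstream of Y82E9BR.10 in its sense direction, and the wide cluster downstream of Y82E9BR.11 (pals-40).

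Y82E9BR.6 had 13 antisense reads (6.92 to 22.2) in 2 clusters 26 nt wide on the minus strand. The nearer of them lay 5081 nt beyond the last Y82E9BR.20 cluster. The larger one, with 11 reads and 2 distinct sequences at III 1381597 to 1381622, lay over the stop codon and the polyA site in exon 2. The smaller one, with 2 reads and 2 distinct sequences at 1381547 to 1381572, crossed the 3′ splice site before exon 2. The clusters lay 24 nt apart, and no antisense exon read of this gene was outside them. Sense exon reads numbered 0, which allows up to 3 reads. Both clusters also lie within intron 3 of fbxa-138, an F-box gene on the minus strand, in its sense direction. In the stretch of 7160 nt that holds all clusters of both Y82E9BR genes, the minus strand carried 7 clusters with 55 reads, of which 5 clusters with 26 reads were 26 nt wide, and the plus strand carried 2 clusters with 6 reads, none 26 nt wide.

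**Figure D1:**
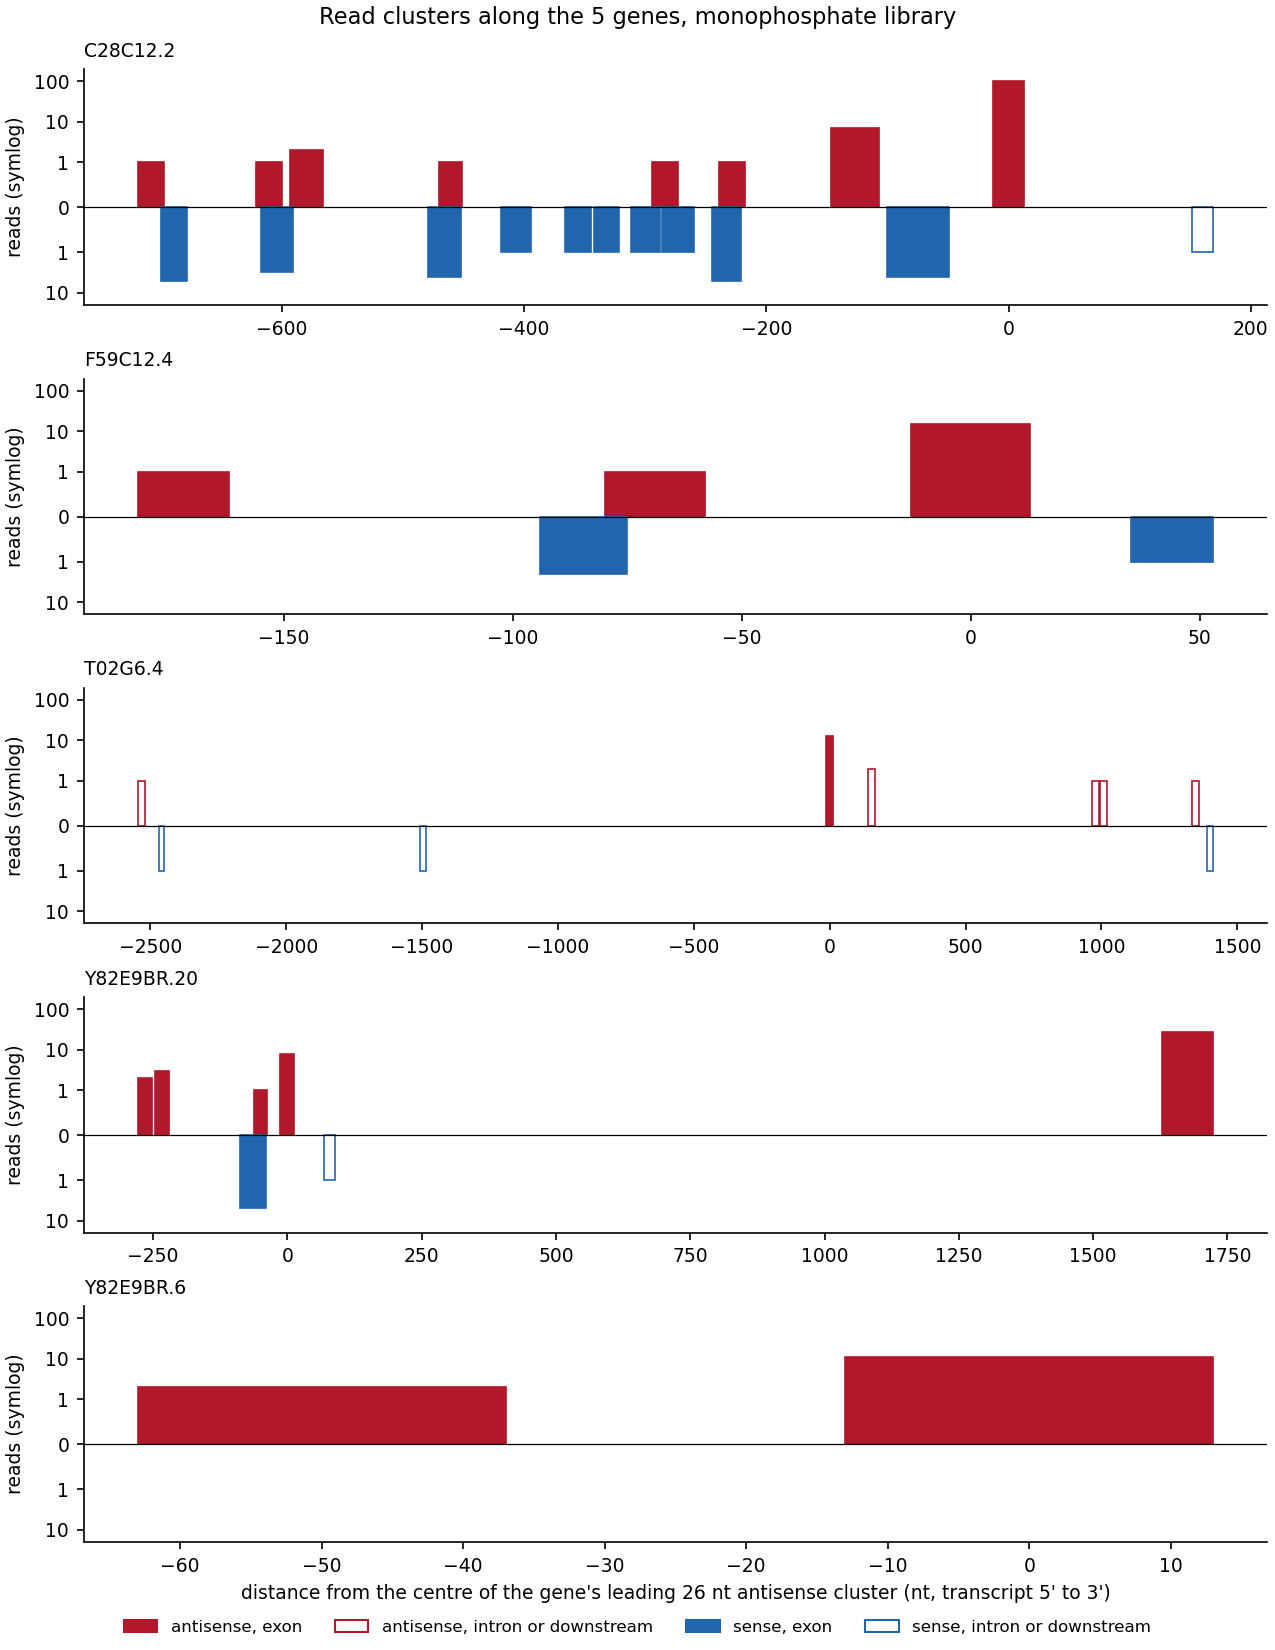
Clusters along each gene, placed by distance in nt from the centre of the leading 26 nt antisense cluster and drawn to scale in width, with reads on a symmetric log axis (antisense upward, sense downward, open bars for introns and downstream stretches). C28C12.2 has 100 reads in its leading cluster beside sense clusters of at most 5 reads, T02G6.4 has 26 nt clusters on both sides of its leading one, and the 28 reads of the wide cluster set Y82E9BR.20 apart.

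Together the 5 genes held 154 of the 701 antisense reads in 26 nt clusters (21.97%, 18.96 to 25.2), in 8 of 144 such clusters. Antisense 26 nt reads were found for 90 genes, 0.444% of all genes compared, with a median of 2 reads. C28C12.2 had fewer such reads than 1 gene, E01G4.7 of the ERGO-1 list with 185, and F59C12.4 fewer than 5 genes. T02G6.4, Y82E9BR.20, Y82E9BR.6 and Y43F8B.9 of the ERGO-1 list were level at 13. Just outside the choice came F31A9.2 with 12 reads (6.201 to 20.96), then C01A2.1 and F31A9.4 (fbxc-37) with 11 each (5.49 to 19.7). Their intervals overlap those of the 4 lower of the 5 genes, so the depth of this library does not resolve the border of the group.

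**Figure D2:**
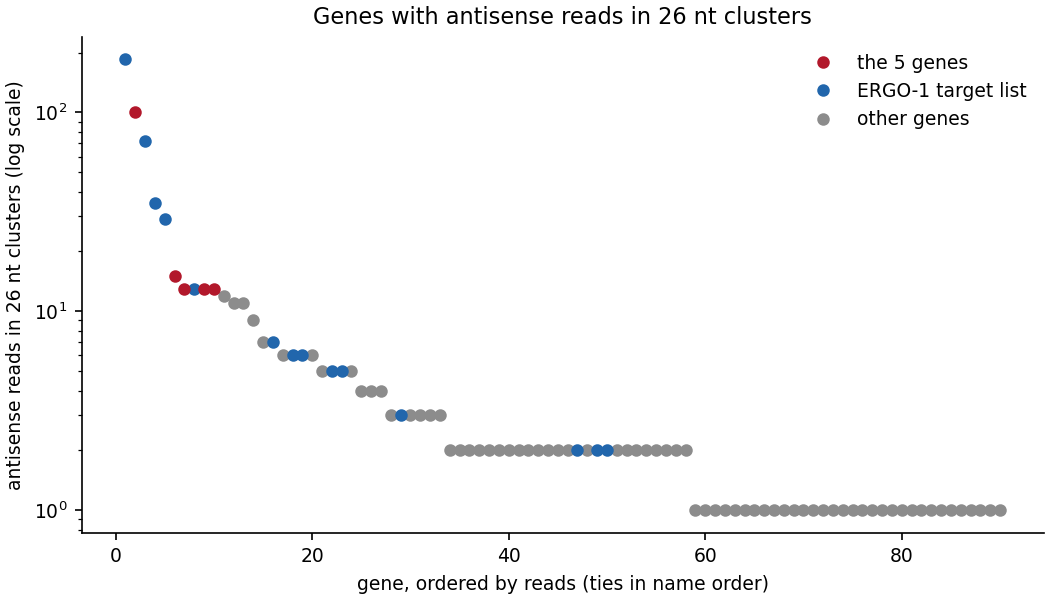
Antisense reads in 26 nt clusters (log axis) for each of the 90 genes that had any, ordered by reads. The 5 genes lie among the leading 10 with 13 to 100 reads, mixed with members of the ERGO-1 target list, and the next gene, F31A9.2, follows at 12 reads.

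Antisense reads were concentrated in 26 nt clusters in 4 of the 5 genes. The other genes are all those with exons named in the list, some of which the current gene table holds as pseudogenes or, in the case of C40A11.10, as a miRNA gene. Of 199 antisense exon reads of the 5 genes, 77.4% lay in 26 nt clusters (70.9 to 83.0), against 5.02% of 10898 reads in other genes (4.62 to 5.45). This contrast is part of how the genes were chosen. The share was 87.7% in C28C12.2 (80.3 to 93.1), 88.2% in F59C12.4 (63.6 to 98.5), 100% in T02G6.4 and Y82E9BR.6 (75.3 to 100 each) and 31.0% in Y82E9BR.20 (17.6 to 47.1). Leaving out the 26 nt clusters, 2 of the remaining 45 antisense reads were in 22 nt clusters (4.44%, 0.543 to 15.1), against 2056 of 10351 in other genes (19.9%, 19.1 to 20.6). That difference rests on the 95 nt cluster of Y82E9BR.20. Without its 28 reads the share was 11.8% (1.46 to 36.4), an interval that includes the value of other genes. Reads of 22 nt that were merged into wider clusters do not enter this count.

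**Figure D3:**
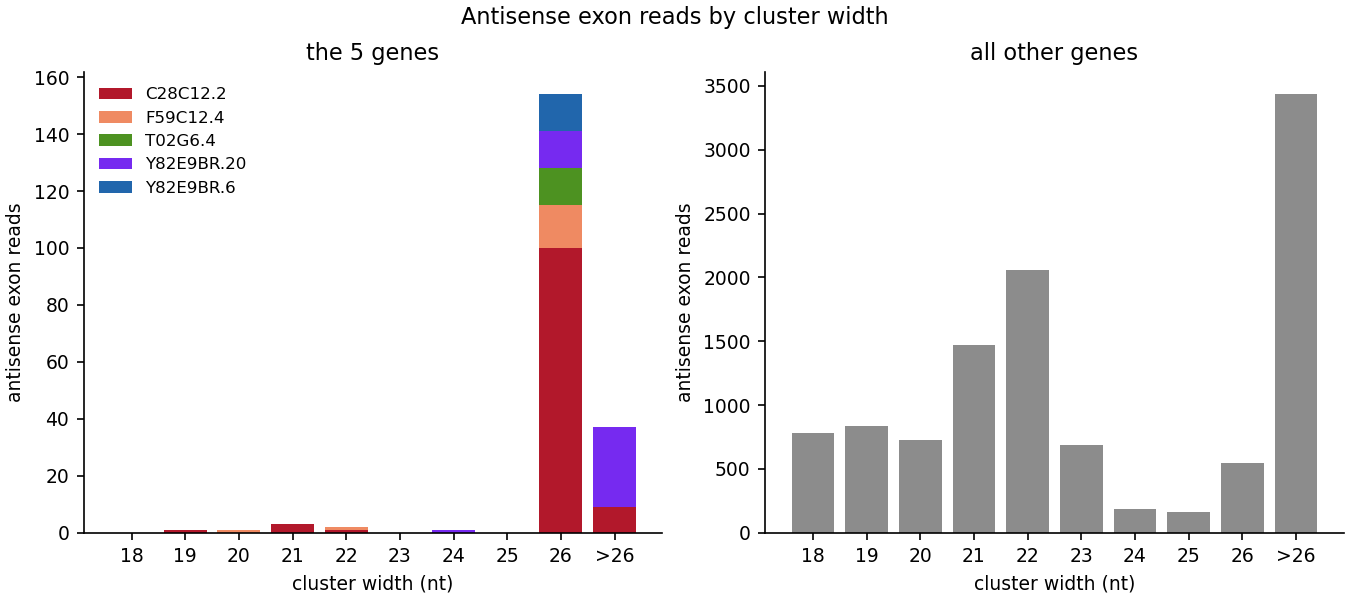
Antisense exon reads by cluster width in nt, stacked by gene for the 5 genes on the left and for all other genes on the right, on separate vertical scales. The 5 genes have 154 reads at 26 nt and 37 in wider clusters, of which 28 belong to Y82E9BR.20, while other genes have 2056 reads at 22 nt and 547 at 26 nt.

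Reads of the 5 genes were mostly antisense. Of their 233 exon reads, 199 were antisense and 34 sense, an antisense share of 85.4% (80.2 to 89.7), against 13.8% (13.6 to 14.1) in other genes. Leaving out the 26 nt antisense clusters removes the reads that chose the genes, but does not undo a choice made on antisense signal. Most other genes were not so chosen, since 90 of 20259 genes had antisense 26 nt reads. Without these clusters 45 antisense and 34 sense reads were left, a share of 57.0% (45.3 to 68.1). In other genes the share was 13.2% (13.0 to 13.4). Without the 95 nt cluster of Y82E9BR.20 as well, the share was 33.3% (20.8 to 47.9; 17 of 51 reads). Of these 17 antisense reads 14 were from C28C12.2, 7 of them in its 40 nt cluster, and the other 4 genes had 3 of 11 reads in antisense (27.3%, 6.02 to 61.0), an interval that includes the share of other genes. By gene this remaining share was 35.0% in C28C12.2 (20.6 to 51.7; 14 of 40 reads), 2 of 5 reads in F59C12.4 (interval 5.27 to 85.3%) and 85.3% in Y82E9BR.20 (68.9 to 95.05; 29 of 34 reads). In Y82E9BR.20 it was 16.7% (0.421 to 64.1; 1 of 6 reads) without the 95 nt cluster. T02G6.4 and Y82E9BR.6 had no exon read left. The shares of F59C12.4, and of Y82E9BR.20 without that cluster, were not distinguishable at this depth from that of other genes. A mostly antisense share was not particular to the 5 genes. The 25 ERGO-1 targets together had 1179 antisense exon reads, 372 of them in 26 nt clusters, and 520 sense exon reads. In sense, C28C12.2 ranked high, with 385 of the 7222 genes that had sense exon reads having more. Y82E9BR.20 with 5 reads and F59C12.4 with 3 were near the median of 3 reads of those genes.

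**Figure D4:**
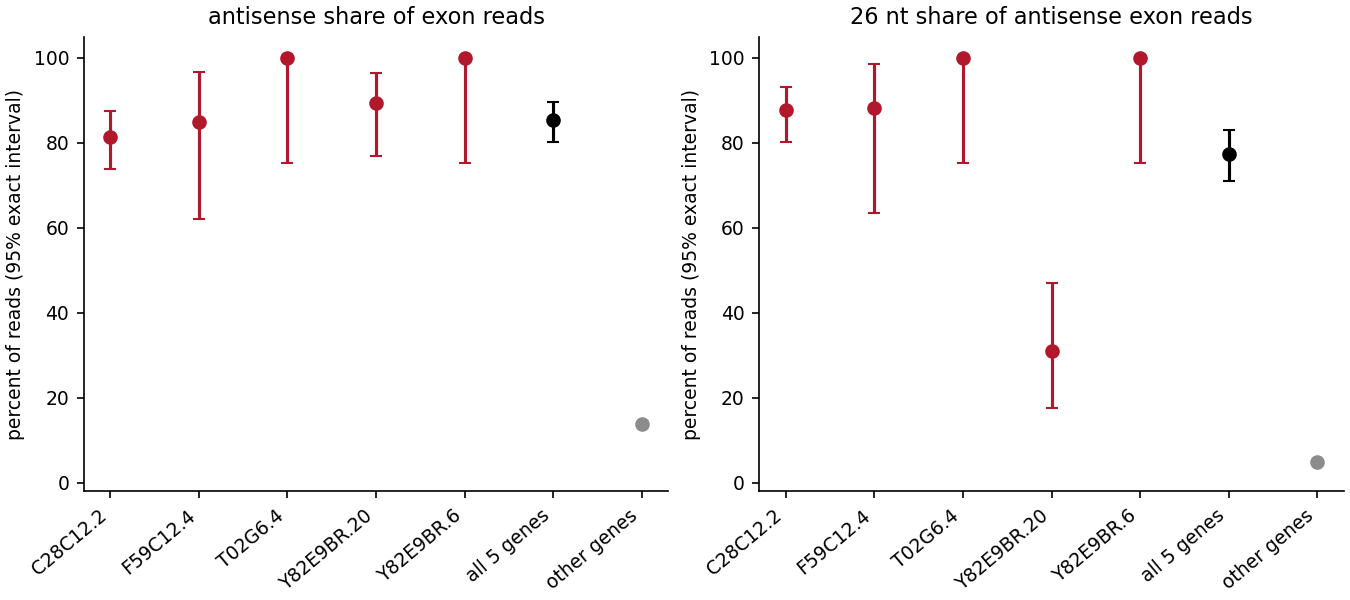
Antisense share of exon reads (left) and share of antisense exon reads in 26 nt clusters (right), in percent with exact 95% intervals, for each gene, the 5 together and all other genes. Each of the 5 genes has an antisense share of at least 81.4%, against 13.8% in other genes, and Y82E9BR.20 has a lower 26 nt share, 31.0%, than the other 4. Both shares include the 26 nt antisense reads that chose the genes. Without the 26 nt antisense clusters the antisense share of the 5 together was 57.0%, and 33.3% without the 95 nt cluster of Y82E9BR.20 as well.

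The 8 antisense 26 nt clusters of the 5 genes were compared with the 136 of other genes in features that did not enter the choice. The sets differ in depth, because the choice was made on reads. The median was 9.5 reads per cluster, against 1 in other genes, and 0 of the 8 clusters had 1 read, against 70 of 136. Whether depth bears on the features given here and below was not tested. None of the 8 overlapped a cluster on the opposite strand (0%, 0 to 36.9), against 27 of 136 (19.9%, 13.5 to 27.6), which held 300 of the 547 reads of other genes. All 8 had 0 edits, as did 131 of 136 (96.3%, 91.6 to 98.8). By reads the sets were less alike, since these 131 clusters held 262 of the 547 reads of other genes (47.9%, 43.6 to 52.2). The read values of other genes are weighted to genes of the ERGO-1 list, which had 372 of the 547 reads. E01G4.7 alone had 185 of them in 2 clusters. A splice site lay inside 3 of the 8 clusters (37.5%, 8.52 to 75.5), 1 each in T02G6.4, Y82E9BR.20 and Y82E9BR.6, with 23 of the 154 reads (14.9%, 9.71 to 21.6). In other genes it lay inside 8 of 136 clusters (5.88%, 2.57 to 11.3), with 17 of 547 reads (3.11%, 1.82 to 4.93). A 3′ UTR was opposite 2 of the 8 clusters, with 108 of the 154 reads, of which 100 were those of C28C12.2, against 19 of 136 clusters in other genes (13.97%, 8.63 to 20.95). For the opposite strand, edits and 3′ UTR, the interval of the 8 clusters includes the value of other genes, so no difference was detectable with 8 clusters. For splice sites it does not include it, although the intervals of both sets overlap; this difference was not tested. The reads of 1 cluster share their source, and the intervals on reads take no account of that.

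An annotation lay on the strand of the reads in 6 of the 8 clusters (75.0%, 34.9 to 96.8), with 41 of the 154 reads. In other genes it did so in 29 of 136 clusters (21.3%, 14.8 to 29.2). These intervals do not overlap, but clusters of 1 gene share their neighbour, and the 6 clusters come from 3 genes. Any annotation on that strand was counted, so in other genes it need not be a gene. The 6 were all the 26 nt antisense clusters of F59C12.4, Y82E9BR.20 and Y82E9BR.6, where the reads lie in sense downstream of, or in an intron of, a neighbour. Whether they came from a transcript of the neighbour or were made against the named gene cannot be told apart in these data. The leading clusters of C28C12.2 and T02G6.4 had no annotation on their own strand. Uniqueness values of the 8 clusters ran from 43 to 52 with a median of 50, against 4 to 52 with a median of 52 in other genes.

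Genes of the surrounding pathway were set beside them. Of the 25 ERGO-1 targets, 14 had antisense 26 nt reads, 372 in all, with a median of 2 reads per gene, against a median of 13 in the 5 genes, which were chosen for it, and of 0 over all genes. After E01G4.7 came C40A11.10 with 72, F52D2.6 with 35, E01G4.5 with 29, Y43F8B.9 with 13, Y37E11B.2 with 7, F39E9.7 and F55C9.3 with 6 each, H16D19.4 and Y17D7B.4 with 5 each, K02E2.6 with 3, and W04B5.2, W04B5.1 and T08B6.2 with 2 each. Antisense exon reads of any width were found for 19 of the 25 targets, against 16.6% of all genes. All 5 genes had them, which their choice fixed in advance. In sense, 3 of the 5 genes and 20 of the 25 targets had reads, against 35.6% of all genes. The median antisense count was 17 in the 5 genes and 37 in the targets, and the median sense count 3 and 6. For the 5 genes the antisense median includes the reads that chose them. C28C12.2 had its 26 nt reads in 1 cluster, as C40A11.10 did, whereas E01G4.5 spread 29 reads over 8 clusters and F52D2.6 spread 35 over 7.

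Genes for the proteins that make or bind these siRNAs gave counts near those of genes at large for antisense 26 nt reads. None of 11 genes of the 26G pathway, among them dcr-1 (Dicer), rrf-3, eri-1 and ergo-1, and none of the 13 genes of the secondary siRNA pathway found in the gene table (of 14 listed) had such reads. With 0.444% of all genes having any, counts of 0 in lists of this size say nothing particular about these genes. In the 26G pathway, 6 of 11 genes had antisense reads of another width, 18 in all, against 16.6% of all genes, and 8 had sense reads, 83 in all, against 35.6% of all genes. In the secondary siRNA pathway, 6 of 13 genes had antisense reads, 17 in all, and 12 had sense reads, 204 in all, of which the nuclear Argonaute gene hrde-1 had 79.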

How the data were processed

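Per the labels' protocols, RNA was extracted with TRIZOL and libraries followed an Illumina small RNA protocol. Bowtie2 2.1.0 is named in the submitters' processing notes; the sources used here give no genome build, annotation release, trimming or filter. The deposited list holds 51569 clusters with 1417144 reads, 49661 clusters and 1412353 reads of them on chromosomes; those on a sequence named markov were left out. The list is restricted to reads of 18 to 26 nt by its name, and the depth of the whole library is unknown. It was read as the monophosphate library, the title that its name shortens.

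Read counts per cluster were used as the authors deposited them, raw and not normalized. A deposited column counts conversion events, and a deposited score column repeats the entropy of each cluster; neither was used. Genes were read from exon names in the deposited annotation, as a sequence name with an optional isoform mark. Clusters with a sense exon, non-coding RNA or transposon annotation were kept out of the antisense class. Names and gene types came from the WBcel235 table (19983 protein-coding genes, to which 276 others with exons named in the list were added); its positions were not used.

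The members and lists were chosen with earlier results of these data known. Genes named are the 5 members, ERGO-1 list genes with antisense 26 nt reads, genes that overlap a member cluster and those just below the lowest member; the pathway examples were named after their values were seen. Intervals are exact Poisson (counts) or Clopper-Pearson (shares), from SciPy 1.17.1 in Python 3.11.15. The counting was tested on simulated data. Other settings tried were the matching of names, edits, distinct sequences, uniqueness of at least 10, clusters counted once, clusters in both directions, and widths of 25 to 27 nt.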

Additional observations from a re-analysis of the deposited data

How the results depend on the processing

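For the 5 genes together, 29 of 44 recomputed values stayed within the counting interval of the reported one. These include every value under the literal name match, the uniqueness minimum of 10, the width range of 25 to 27 nt, clusters in both directions left out and, chosen after seeing the data, intron and downstream clusters added. Counting each cluster once gave 8 antisense 26 nt clusters, 19 antisense and 13 sense clusters, an antisense share of 59.4%, a 26 nt share of 42.1% and a leading-cluster share of 62.5%; a cluster then weighs the same at 1 or 100 reads. Keeping clusters with 1 distinct sequence gave 11 antisense 26 nt reads, 19 antisense and 8 sense reads, an antisense share of 70.4%, a 26 nt share of 57.9% and a leading-cluster share of 72.7%, since the leading clusters of C28C12.2, F59C12.4, T02G6.4 and Y82E9BR.6 hold 2 to 7 sequences and drop out. Keeping clusters with 0 edits gave 171 antisense reads and a 26 nt share of 90.1%, and leaving out the 95 nt cluster of Y82E9BR.20, chosen after seeing the data, also gave 171 reads; that cluster holds the 1 antisense edit. By gene, 172 recomputed values stayed within the interval and 40 did not. No paired analysis was possible because 1 library was analysed and no result comes from a test between groups. Of the 5 genes, 4 had 13 to 15 antisense 26 nt reads, which limits the precision of their shares.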
